A study of Mus musculus with 6 samples.

Results

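The messenger RNA of whole retina from wild-type mice at postnatal day 3 (P3) was set against that at postnatal day 1 (P1), with 1 library at each age. The comparison took all genes whose higher value of the pair was at least 1 RPKM, reads scaled to gene length and library size, and measured the difference of log2(RPKM + 1), P3 minus P1. Of 30042 genes in the table, 13899 reached that level and 16143 did not. A gene was counted as higher or lower at P3 where this difference was at least 1 in either direction, which is 2-fold on the RPKM + 1 scale and understates the change of genes near or below 1 RPKM. The other libraries of the series, at E16.5 (embryonic day 16.5), P7, P14 and P28, are used for context. All 6 are from wild-type mice of the strain given as 129/Sv; C57/BL6J. No deletion or treatment is given for any of them, and neither sex nor the number of animals per library is given. Among sex-linked genes, Xist was at 87.4, 145 and 174 RPKM at E16.5, P1 and P3. It was at 0.845, 0.870 and 2.06 RPKM at P7, P14 and P28. Ddx3y was at 4.06, 4.35 and 3.27 RPKM, then 10.6, 9.01 and 7.82 RPKM, at the same ages. The libraries of the later ages may thus differ from the pair in sex, which was not tested.

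With 1 library per age there is no replicate spread and no test, and each count below describes this pair of libraries. The P3 library was deeper: from the steps between low values its depth was estimated at 1.86 times that of the P1 library, and 1 read in a 2 kb transcript was worth about 0.0210 RPKM at P3 and 0.0390 RPKM at P1. The step also crosses a change in the form of the library titles. The titles of the P3, P7 and P14 libraries share 1 form and those of the E16.5, P1 and P28 libraries another, in which the genotype comes before the tissue and a number follows. The labels do not say what this form stands for. Age and title form cannot be told apart in this step, and for named genes the values at the other 4 ages are therefore given where they bear on it.

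Around birth the mouse retina is still being built. Dividing progenitors at this stage give rise mostly to rods, bipolar cells and Muller glia, while ganglion cells, horizontal cells and cones have largely formed before birth. Rod fate depends on the transcription factor Nrl, which acts together with the homeodomain protein Crx and switches on Nr2e3, a nuclear receptor that keeps cone genes low in rods. The rod outer segment, with its phototransduction proteins, is assembled only later, during the second postnatal week.

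At P3, 297 of the 13899 genes were higher than at P1 (2.14%) and 537 were lower (3.86%), while 13065 lay within the threshold. The median difference over all genes was -0.02 on the log2 scale, with quartiles of -0.32 and 0.28. Outside the ribosomal protein genes, and with at least 10 RPKM in 1 of the libraries, the largest differences upward were those of Ptprz1, Cdr1, Ramp2 and the rod factor Nrl, and most of the 15 lowest entries were pseudogenes or identifiers not in the RefSeq table. A gene under 1 RPKM in the lower of its libraries passed the filter through the other library alone, which held for 93 of the 297 higher and 86 of the 537 lower genes. The balance between the directions depended on the scaling. Of the called genes 35.6% were higher as deposited, and 49.9% were higher (423 higher and 425 lower) when both libraries were scaled to a common total without ribosomal protein genes and the 50 highest genes, a scaling that put the median of all genes at 0.09. A pseudocount of 0.1 gave 718 higher and 850 lower, or 45.8% higher. Among genes with at most 5% of their sequence shared with another gene, measured as described below, 205 were higher and 171 were lower, so that 54.5% were higher.

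**Figure D1:**
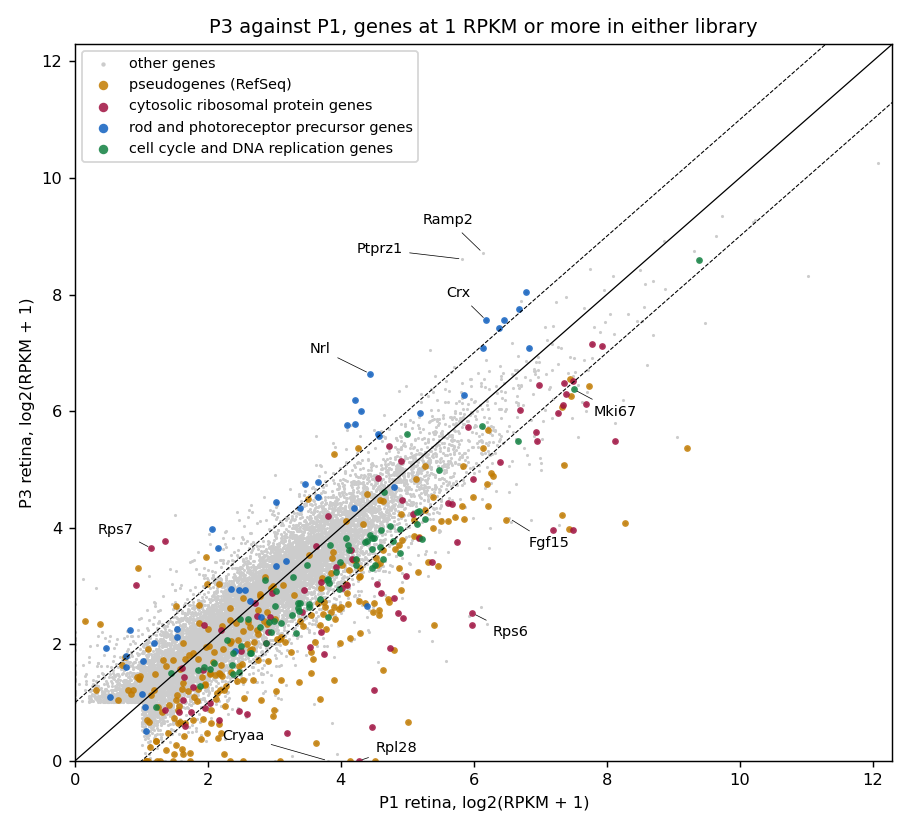
Level of each of the 13899 genes at P3 (vertical) against P1 (horizontal), as log2(RPKM + 1), 1 point a gene and 1 library an age. The solid line marks equal levels and the dashed lines a difference of 1 in either direction; rod and precursor genes such as Nrl lie above the band, and many ribosomal protein genes and pseudogenes lie below it.

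Rod photoreceptor genes and the factors of photoreceptor precursors were the cell-type lists with the highest medians. Each list count here and below stands beside 2.14% of all genes higher and 3.86% lower. Of 18 precursor factors that passed, 8 were higher and 0 lower, with a median difference of 0.93, beside -0.02 over all genes. Of 30 rod genes that passed, 13 were higher and 1 lower, with a median of 0.89; 3 of the 13 were under 1 RPKM at P1. Nrl and Nr2e3 are in both lists, which together held 19 higher genes. Thrb, Rxrg and Sall3 are in both the precursor list and the cone list. In whole tissue, more cells of a type and more RNA per cell cannot be told apart.

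Nrl, the leucine zipper factor that specifies rods, was at 99.0 RPKM at P3 and 20.6 RPKM at P1, a difference of 2.21. The ratio of 4.80 had a 95% interval of 4.53 to 5.09 from the estimated reads, by the exact binomial method; this and the intervals below cover counting error only. Nr2e3 was at 72.2 RPKM at P3 and 17.4 RPKM at P1, a ratio of 4.14 (3.80 to 4.51). Across the 6 ages Nrl went upward throughout, with 4.45 RPKM at E16.5, 20.6 RPKM at P1, 99.0 RPKM at P3, 233 RPKM at P7, 283 RPKM at P14 and 318 RPKM at P28, whereas Nr2e3 was highest at P7, with 192 RPKM, and stood at 58.1 RPKM at P28. Among the factors that act earlier in the lineage the differences were smaller. Crx was at 188 RPKM at P3 and 71.6 RPKM at P1 (difference 1.38). Neurod1, a basic helix-loop-helix factor of photoreceptor and amacrine cells, was at 264 RPKM at P3 and 109 RPKM at P1 (1.26). Otx2, the homeodomain factor that starts photoreceptor and bipolar fates, was at 171 RPKM at P3 and 82.6 RPKM at P1 (1.04). Otx2 and Neurod4 (187 RPKM at P3 and 86.7 RPKM at P1) had their highest level of the 6 ages at P3, and Otx2 was back to 38.3 RPKM at P28. Prdm1, a repressor that holds precursors to the photoreceptor fate, was likewise highest at P3, with 61.3 RPKM against 35.6 RPKM at P1, without reaching the threshold (0.77).

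The structural and signalling genes of the rod did not differ as a block. Pde6b, a catalytic subunit of the rod phosphodiesterase, was at 14.8 RPKM at P3 and 3.16 RPKM at P1 (difference 1.93). The tetraspanins of the disc rim were similar to each other: Rom1 was at 63.2 RPKM at P3 and 18.8 RPKM at P1, and Prph2 at 54.0 RPKM at P3 and 17.6 RPKM at P1. Cngb1, a subunit of the rod cyclic-nucleotide-gated channel, was at 2.80 RPKM at P3 and 0.376 RPKM at P1, a ratio of 7.41 from the estimated reads (5.11 to 11.1). Gucy2e, a guanylate cyclase of the outer segment, was at 3.76 RPKM at P3 and 0.776 RPKM at P1. Sag, which encodes rod arrestin, was at 11.5 RPKM at P3 and 3.46 RPKM at P1. The microtubule protein gene Rp1 was at 20.6 RPKM at P3 and 7.14 RPKM at P1. All of these went on to higher levels at P7, Sag to 77.2 RPKM and Prph2 to 260 RPKM.

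Gnat1, the alpha subunit of rod transducin, was the only rod gene lower by the threshold: it stood at 5.32 RPKM at P3 and 19.95 RPKM at P1, 3.75-fold lower at P3. Its value at E16.5 was 16.5 RPKM and at P7 35.9 RPKM, before 2039 RPKM at P14, so P3 was its lowest library. Guca1b and Slc24a1, a calcium sensor and a calcium exchanger of rods, were also below P1 at this age, with differences of -0.71 and -0.56, but Guca1b, at 0.153 RPKM at P3 and 0.888 RPKM at P1, did not reach the level of 1 RPKM.

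To show the promoters of these genes, the 200 bases before the start of transcription were searched for the Crx-type letters TAATCC or GGATTA and the Nrl-type letters TGCTGA or TCAGCA, each pair being the same motif read on the 2 strands. Of the 19 rod or precursor genes that were higher at P3, 18 had a promoter in the RefSeq table, and the Crx-type letters were in 8 of them (44.4%) and the Nrl-type letters in 6 (33.3%). Among all 36 rod or precursor genes that passed and had a promoter the shares were 33.3% and 30.6%, and among all 9797 promoters of genes that passed they were 3.80% and 9.56%. The 5 promoters printed here are those of the largest differences among the higher genes that hold the Crx-type letters, written 5′ to 3′ on the gene's strand, with either motif in capitals. They come from RefSeq, build GRCm38.p6, a later build than the mm9 of the authors' processing. The positions are chr1:87803480-87803679 on the plus strand for Sag, chr8:95306586-95306785 on the minus strand for Cngb1, chr11:69237023-69237222 on the minus strand for Gucy2e, chr7:15879956-15880155 on the minus strand for Crx and chr3:30746093-30746292 on the plus strand for Samd7, a Polycomb-associated regulator of rods that was at 25.99 RPKM at P3 and 9.94 RPKM at P1.
Sag: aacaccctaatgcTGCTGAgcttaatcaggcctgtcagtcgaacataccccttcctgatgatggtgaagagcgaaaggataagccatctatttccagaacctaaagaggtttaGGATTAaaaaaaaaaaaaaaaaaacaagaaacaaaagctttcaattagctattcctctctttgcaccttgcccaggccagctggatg
Cngb1: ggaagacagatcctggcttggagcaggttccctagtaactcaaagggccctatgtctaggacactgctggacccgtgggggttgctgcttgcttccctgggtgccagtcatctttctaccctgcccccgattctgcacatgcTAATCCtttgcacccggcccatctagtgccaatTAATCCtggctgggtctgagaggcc
Gucy2e: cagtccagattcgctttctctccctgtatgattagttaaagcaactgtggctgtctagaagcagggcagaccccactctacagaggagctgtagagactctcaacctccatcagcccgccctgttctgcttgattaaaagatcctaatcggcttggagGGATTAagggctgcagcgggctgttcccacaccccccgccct
Crx: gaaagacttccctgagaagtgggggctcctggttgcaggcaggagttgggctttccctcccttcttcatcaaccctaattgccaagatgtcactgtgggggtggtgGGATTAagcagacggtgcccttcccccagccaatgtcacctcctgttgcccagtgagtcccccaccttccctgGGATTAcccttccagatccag
Samd7: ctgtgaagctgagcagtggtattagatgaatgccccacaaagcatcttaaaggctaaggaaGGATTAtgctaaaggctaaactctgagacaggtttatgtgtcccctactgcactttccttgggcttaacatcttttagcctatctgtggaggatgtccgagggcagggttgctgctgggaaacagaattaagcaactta
A match describes these letters in this window and is not evidence that a factor bound there.

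**Figure D2:**
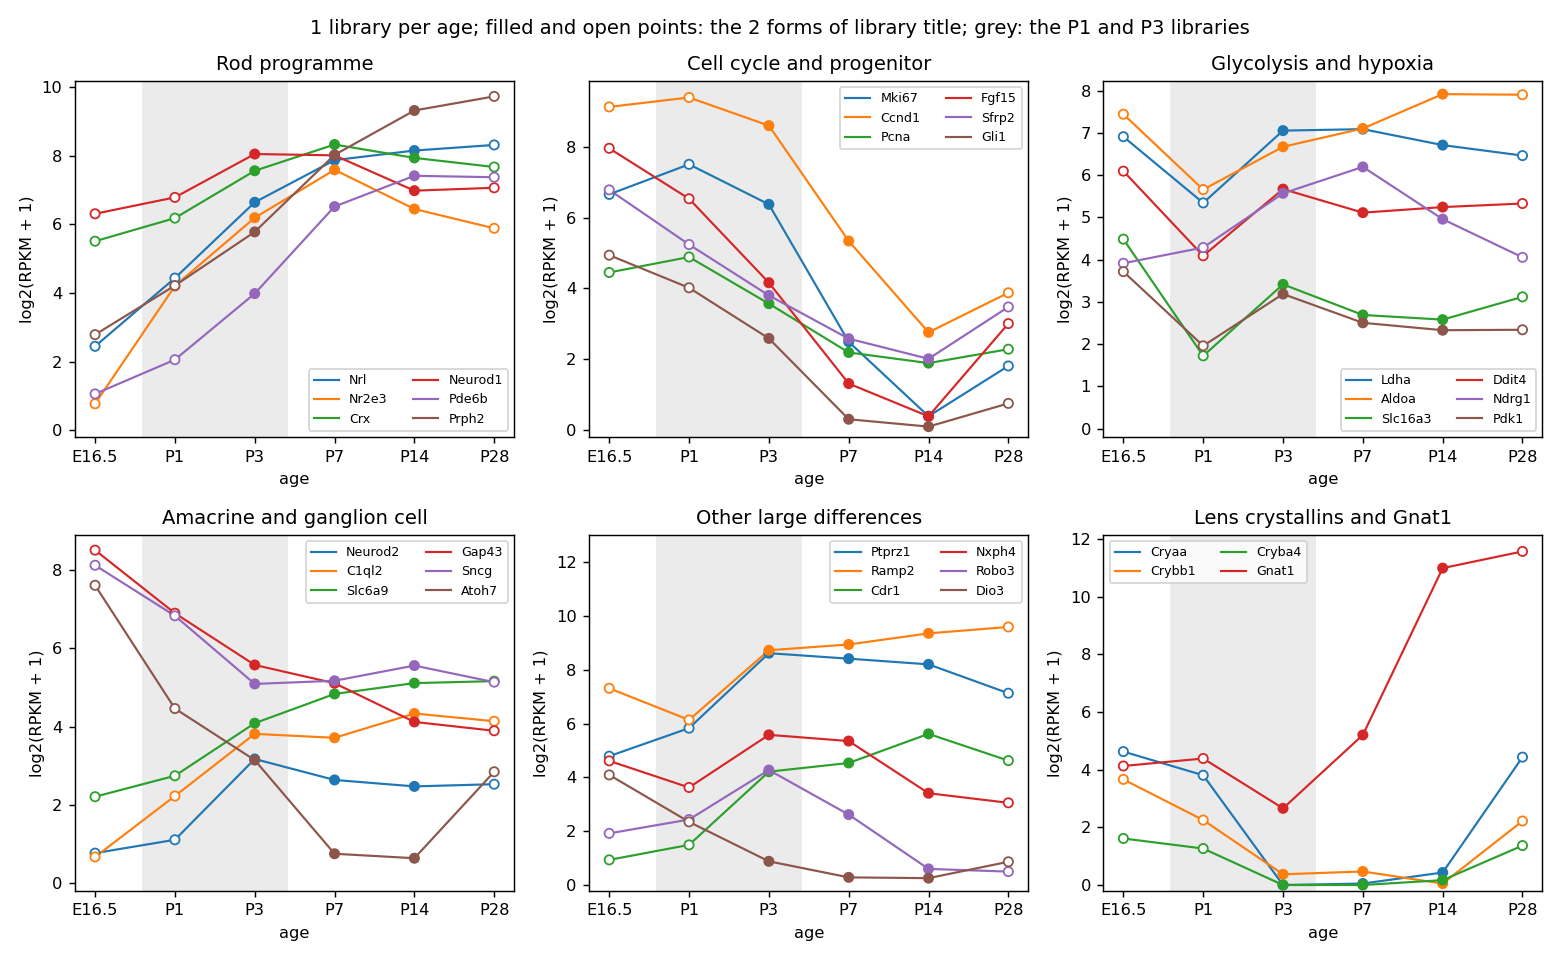
Levels of named genes at all 6 ages as log2(RPKM + 1), 1 library an age, with the P1 and P3 libraries on grey and the forms of library title as filled and open points. Nrl climbs through the grey band, Fgf15 and Mki67 descend, and the glycolysis and hypoxia genes other than Ndrg1 dip at P1.

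Fewer cone genes reached the threshold. Of 16 that passed, 3 were higher and 0 lower, with a median of 0.22; the median was 0.42 among genes with at least 5 RPKM and 0.33 with a pseudocount of 0.1. Opn1sw, the short-wave cone opsin, was at 37.8 RPKM at P3 and 35.3 RPKM at P1, and the cone transducin gene Gnat2 was at 6.26 RPKM at P3 and 8.64 RPKM at P1. Thrb, the thyroid hormone receptor needed for the other cone opsin, was at 6.68 RPKM at P3 and 4.11 RPKM at P1, a difference of 0.59. The 3 cone genes above the threshold were Kcnv2, a potassium channel subunit, with 14.4 RPKM at P3 and 3.81 RPKM at P1, Pcdh15, with 8.60 RPKM at P3 and 3.16 RPKM at P1, and Pde6h, the inhibitory subunit of the cone phosphodiesterase. Pde6h was at 1.49 RPKM at P3 and 0.0406 RPKM at P1, about 211 reads at P3 and 3 at P1, a ratio of 37.7 with a wide interval of 12.7 to 185. Of the 3 it alone was under 1 RPKM at P1. It passed through the P3 library alone, so the filter set its direction.

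Genes of proliferation stood lower at P3 almost throughout. Of 40 cell cycle and mitosis genes that passed, 6 were past the threshold and lower and 0 were higher, beside 3.86% and 2.14% of all genes. In this list 38 had a difference below 0, and the median was -0.70. Of 37 DNA replication genes, 7 were lower (2 with at most 5% of their sequence shared with another gene) and 0 higher, 36 had a difference below 0, and the median was -0.68. Mki67, a marker of dividing cells, was at 81.9 RPKM at P3 and 181 RPKM at P1, 2.20-fold lower. Ccna2, the cyclin of S phase and G2, was at 43.7 RPKM at P3 and 101 RPKM at P1. Ccnd1, the main D-type cyclin of retinal progenitors, was at 386 RPKM at P3 and 671 RPKM at P1, a difference of -0.79 that did not reach the threshold. Pcna and Uhrf1 had the lowest differences of the replication list, at -1.32 and -1.40, and 23.3% and 24.2% of their sequence was shared with other genes. With genes of more than 5% shared left out, 2 replication genes were lower, and the median of the list was -0.59. The cell cycle list as a whole summed to 902 RPKM at P3 and 1566 RPKM at P1, and to 118 RPKM at P7, where Mki67 was at 4.63 RPKM and Ccna2 at 5.74 RPKM. That sum was 43.3 RPKM at P14 and 68.0 RPKM at P28, and Mki67 was at 0.309 and 2.50 RPKM at these ages. The 1 replication gene with a difference above 0 was Gins2, a subunit of the replicative helicase complex, at 47.6 RPKM at P3 and 30.9 RPKM at P1 (0.60).

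Progenitor genes followed, with 5 of 33 lower, 0 higher and a median of -0.52. Fgf15, a growth factor made by progenitors, was the lowest, at 16.9 RPKM at P3 and 91.5 RPKM at P1, 5.42-fold lower. Sfrp2, a secreted modulator of Wnt signals, was at 12.9 RPKM at P3 and 36.8 RPKM at P1. Gli1, a target of hedgehog signals, was at 5.01 RPKM at P3 and 15.2 RPKM at P1, and Id1, a target of BMP signals, was at 13 RPKM at P3 and 34.3 RPKM at P1. Fgf15 and Gli1 had been higher still at E16.5, with 248 and 29.7 RPKM, and both were under 2 RPKM at P7. From P14 to P28 the levels went up for Fgf15, from 0.307 to 7.03 RPKM, and for Sfrp2, from 3.03 to 10.1 RPKM. Gli1 went from 0.0685 to 0.684 RPKM, and Id1 went down, from 3.17 to 2.69 RPKM. P28 shares the title form of P1, and age and title form cannot be told apart here.

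Ganglion cell genes were lower on balance: 5 of 29 were lower, 0 were higher, 27 had a difference below 0, and the median was -0.46. Sncg, which encodes gamma-synuclein, was at 33.1 RPKM at P3 and 113 RPKM at P1, 3.42-fold lower. Gap43, a protein of growing axons, was at 46.8 RPKM at P3 and 119 RPKM at P1. Atoh7, the factor that makes progenitors competent to form ganglion cells, was at 7.84 RPKM at P3 and 21.1 RPKM at P1, after 195 RPKM at E16.5. Its later levels were 0.679 RPKM at P7, 0.551 RPKM at P14 and 6.19 RPKM at P28. The POU factors that mark ganglion cells differed by -0.88 for Pou4f2, -0.89 for Pou4f1 and -1.01 for Pou4f3. Nefl, a neurofilament subunit, and Thy1, a surface protein, each differed by -0.42, and Nefh, the heavy neurofilament subunit, was at 1.85 RPKM at P3 and 1.08 RPKM at P1. The axon growth list had 2 of 34 lower, beside 3.86% of all genes, 0 higher and a median of -0.24. Its lowest gene was the microtubule regulator Stmn1, at 23.4 RPKM at P3 and 91.8 RPKM at P1.

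Amacrine cell genes split. Of 23 that passed, 4 were higher, 0 lower and the median was 0.17, or 0.29 when scaled to the common total. Neurod2, a factor of an amacrine subset, was at 8.01 RPKM at P3 and 1.15 RPKM at P1, a ratio of 7 from the estimated reads (5.18 to 9.67). C1ql2, a secreted synaptic organiser, was at 13.1 RPKM at P3 and 3.67 RPKM at P1, C1ql1 at 17.2 RPKM at P3 and 7.24 RPKM at P1, and the glycine transporter gene Slc6a9 at 16.01 RPKM at P3 and 5.69 RPKM at P1. The vesicular transporter for GABA and glycine, Slc32a1, was just under the threshold, at 16.6 RPKM at P3 and 8.01 RPKM at P1. On the other side, Ptf1a, the factor that starts amacrine and horizontal fates, was at 4.40 RPKM at P3 and 8.80 RPKM at P1, and at 0.112 RPKM at P7. The GABA-synthesis genes went opposite ways, Gad1 with 6.52 RPKM at P3 and 4.28 RPKM at P1, and Gad2 with 7.38 RPKM at P3 and 14.5 RPKM at P1.

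Bipolar cell genes had 1 of 15 higher, which was Otx2, and 2 lower, with a median of -0.05. Those 2 were Lrit3, a protein of the bipolar synapse with photoreceptors, at 4.40 RPKM at P3 and 9.84 RPKM at P1, and the G-protein subunit gene Gng13, at 1.80 RPKM at P3 and 5.99 RPKM at P1. Gng13 was at 6.98 RPKM at E16.5, 1.38 RPKM at P7, 15.8 RPKM at P14 and 21.5 RPKM at P28. Lrit3 was at 2.34, 9.49, 27.2 and 21.1 RPKM at the same ages. Of 27 Muller glia genes, 2 were higher, 1 was lower and the median was 0.01. Rlbp1, which binds retinoids of the visual cycle in Muller glia, was at 40.9 RPKM at P3 and 14.02 RPKM at P1, whereas Glul, glutamine synthetase, was at 50.4 RPKM at P3 and 78.8 RPKM at P1 and at 219 RPKM only at P14. Of 9 horizontal cell genes 0 were higher and 1 was lower, Tpm3, a tropomyosin with 26.99% of its sequence shared with other genes.

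Most synapse genes were higher at P3 by less than the threshold. Of 32 that passed, 1 was higher, a count near the 2.14% of all genes, and 0 were lower, but 26 had a difference above 0 and the median was 0.43. The 1 above the threshold was Cacna2d4, a calcium channel subunit of photoreceptor terminals, at 8.67 RPKM at P3 and 2.99 RPKM at P1. Of 26 transmitter receptors and channels, 2 were higher and 0 lower, with a median of 0.27; Slc12a5, the chloride exporter that makes GABA inhibitory, was higher, at 12.5 RPKM at P3 and 5.37 RPKM at P1.

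**Figure D3:**
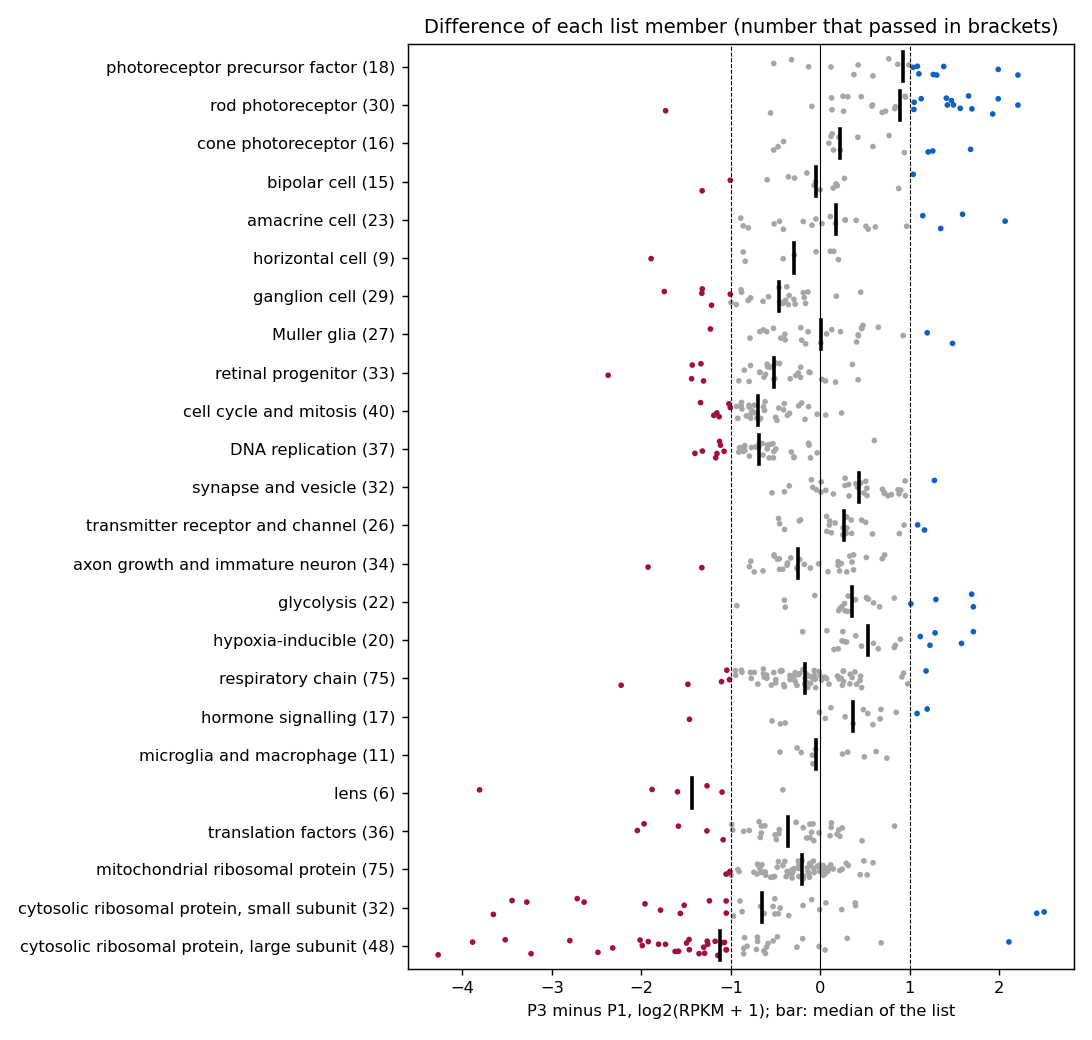
Difference P3 minus P1 in log2(RPKM + 1) for each member of 24 of the gene lists, 1 point a gene, with the number of members that passed in brackets, a bar at the list's median and dashed lines at 1 and -1. Precursor and rod genes have medians of 0.93 and 0.89, cell cycle genes of -0.70, and large-subunit ribosomal protein genes of -1.12.

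Glycolysis and hypoxia-inducible genes were higher at P3, and for most of those past the threshold P1 was the low point of the 6 ages. Of 22 glycolysis genes 4 were higher (2 with at most 5% shared), 0 lower and the median was 0.35; of 20 hypoxia-inducible genes 5 were higher, 0 lower and the median was 0.53. Ldha, which turns pyruvate into lactate and belongs to both lists, was at 132 RPKM at P3 and 39.6 RPKM at P1; its other levels were 119 RPKM at E16.5, 135 at P7, 104 at P14 and 87.3 at P28. Slc16a3, a lactate exporter, was at 9.67 RPKM at P3 and 2.30 RPKM at P1, after 21.4 RPKM at E16.5. Pfkl, a phosphofructokinase subunit, was at 13.04 RPKM at P3 and 4.73 RPKM at P1, with 18.3 RPKM at E16.5. Among the hypoxia genes, Ddit4, an inhibitor of mTOR signalling, was at 49.95 RPKM at P3 and 16.1 RPKM at P1, with 67.4 RPKM at E16.5, and Pdk1, which holds pyruvate back from mitochondria, was at 8.11 RPKM at P3 and 2.89 RPKM at P1, with 12.2 RPKM at E16.5. The P1 library was thus below both neighbouring ages for these 5 genes, and these genes do not separate the title forms. Ndrg1, a stress-responsive gene, had another course: 46.5 RPKM at P3 and 18.5 RPKM at P1, after 14.1 RPKM at E16.5. Vegfa, the vascular growth factor, was at 46.1 RPKM at P3 and 24.3 RPKM at P1 (0.90).

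Of the thyroid hormone genes, 2 of the 17 that passed were higher and 1 was lower, beside 2.14% and 3.86% of all genes. Of the 2 higher genes, 1 was under 1 RPKM at P1, and the 1 lower gene, Dio3, was under 1 RPKM at P3. Each of these passed through the other library alone, so the filter set its direction. The series as a whole concerns the deiodinases, the enzymes that inactivate (type 3) or activate (type 2) thyroid hormone. Dio3 was at 0.857 RPKM at P3 and 4.12 RPKM at P1, a difference of -1.46 with an estimated 41 reads at P3 and 107 at P1. Dio2 was at 0.159 RPKM at P3 and 0.135 RPKM at P1, about 22 reads at P3 and 10 at P1, and did not pass the level of 1 RPKM. Crym, a protein that binds thyroid hormone in the cell, was at 30.1 RPKM at P3 and 12.6 RPKM at P1. The receptor gene Thra was at 34.97 RPKM at P3 and 18.97 RPKM at P1 (0.85).

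Ptprz1, Cdr1 and Ramp2 had the largest differences upward among genes outside the ribosomal lists with at least 10 RPKM. Ptprz1, a receptor phosphatase of glia and progenitors, was at 389 RPKM at P3 and 55.9 RPKM at P1, a difference of 2.78 and a ratio of 6.97 (6.78 to 7.16); it was at 26.7 RPKM at E16.5, 338 at P7, 292 at P14 and 139 at P28, and so is higher in all libraries of the P3 title form than in the others. Ramp2, an accessory protein of the receptor for adrenomedullin and a marker of vessels in many tissues, was at 420 RPKM at P3 and 69.3 RPKM at P1. It was the only 1 of the 8 endothelial and pericyte genes that passed to be higher, and 0 were lower; Cldn5, a tight-junction gene of endothelium, was at 4.34 RPKM at P3 and 7.54 RPKM at P1. Ramp2 has 31.7% of its sequence in common with other genes. Cdr1 was at 17.6 RPKM at P3 and 1.83 RPKM at P1 (2.71); an antisense transcript covers this gene, and as the sources used here do not name the strand that was counted, reads of the 2 cannot be told apart. Nxph4, a neurexin ligand, was at 46.9 RPKM at P3 and 11.4 RPKM at P1, and Robo3, an axon guidance receptor, was at 18.4 RPKM at P3 and 4.43 RPKM at P1; both were highest at P3 of the 6 ages. Nxnl1, the gene of a cone viability factor released by rods, was at 10.99 RPKM at P3 and 2.60 RPKM at P1. Among genes lower at P3, Plagl1, an imprinted zinc finger factor, was at 30.96 RPKM at P3 and 129 RPKM at P1 (-2.02). Aldh1a3, an enzyme that makes retinoic acid, was under 10 RPKM in both libraries, at 1.19 RPKM at P3 and 7.04 RPKM at P1 (-1.88). Neither was among the 15 lowest.

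Cytosolic ribosomal protein genes are described apart, because as a class they lay far from the rest of the table. Of 82 measured, 80 passed; 40 were lower (50%, beside 3.86% of all genes), 3 were higher, 70 had a difference below 0, and the median was -1.01. The large subunit had 28 of 48 lower and 1 higher, with a median of -1.12, and the small subunit 12 of 32 lower and 2 higher, with a median of -0.65. Of the lower genes, 5 of the large and 4 of the small subunit were under 1 RPKM at P3 and passed through the P1 library alone. The 1 higher gene of the large subunit passed through the P3 library alone. With a filter of 5 RPKM, 35 genes of the class were lower and the median was -1.12. The summed level of these genes was 1.17% of all RPKM at P3 and 2.34% at P1. At the other ages it was 2.25% at E16.5, 0.851% at P7, 0.533% at P14 and 0.740% at P28. The genes of the class did not share 1 ratio: the SD of their differences was 1.25, beside 0.55 over all genes.

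The lowest was Rpl28, listed at 0 at P3, P7 and P14, against 18.3 RPKM at P1, and with 18.2 RPKM at E16.5 and 1.72 RPKM at P28. Its difference of -4.27 depends on the pseudocount, and no ratio is given. Rpl41 was at 14.6 RPKM at P3 and 178 RPKM at P1, Rpl31 at 14.6 RPKM at P3 and 146 RPKM at P1, and Rps6, a target of the growth-signalling kinase S6K, at 4.79 RPKM at P3 and 62.1 RPKM at P1. The 3 genes above the threshold were Rps7, with 11.5 RPKM at P3 and 1.21 RPKM at P1, Rps16, with 12.7 RPKM at P3 and 1.55 RPKM at P1, and Rpl29, with 7.14 RPKM at P3 and 0.886 RPKM at P1. In many genomes, and in the mouse in particular, ribosomal protein genes have numerous processed pseudogenes, and reads that fit several copies can be counted at any, all or none of them. The sources used here do not say how such reads were treated.

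Sharing of sequence was measured as the percentage of a gene's 31-base words, taken from its GENCODE transcripts, that also occur in the transcripts of another gene. The median was 25.1% for the ribosomal protein genes and 0.354% over all genes with a value. Within the class, 28 of the 53 genes with more than 20% shared were lower, with a median of -1.05, and 12 of the 27 with at most 20% were lower, with a median of -0.87; a single gene had at most 5% shared. In some cases a gene and another entry of the table held a fixed ratio in all 6 libraries. Rps6 was 1.04 times Gm13654 in each library, and Rpl31 was 0.938 times LOC638399. Such partners, with a ratio constant within 5%, were found for 4 of 72 ribosomal protein genes at the level needed for this check (5.56%) and for 540 of 12916 genes of all kinds (4.18%). For Rps6 and Rpl31 the deposited value is not independent of that of the other entry.

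**Figure D4:**
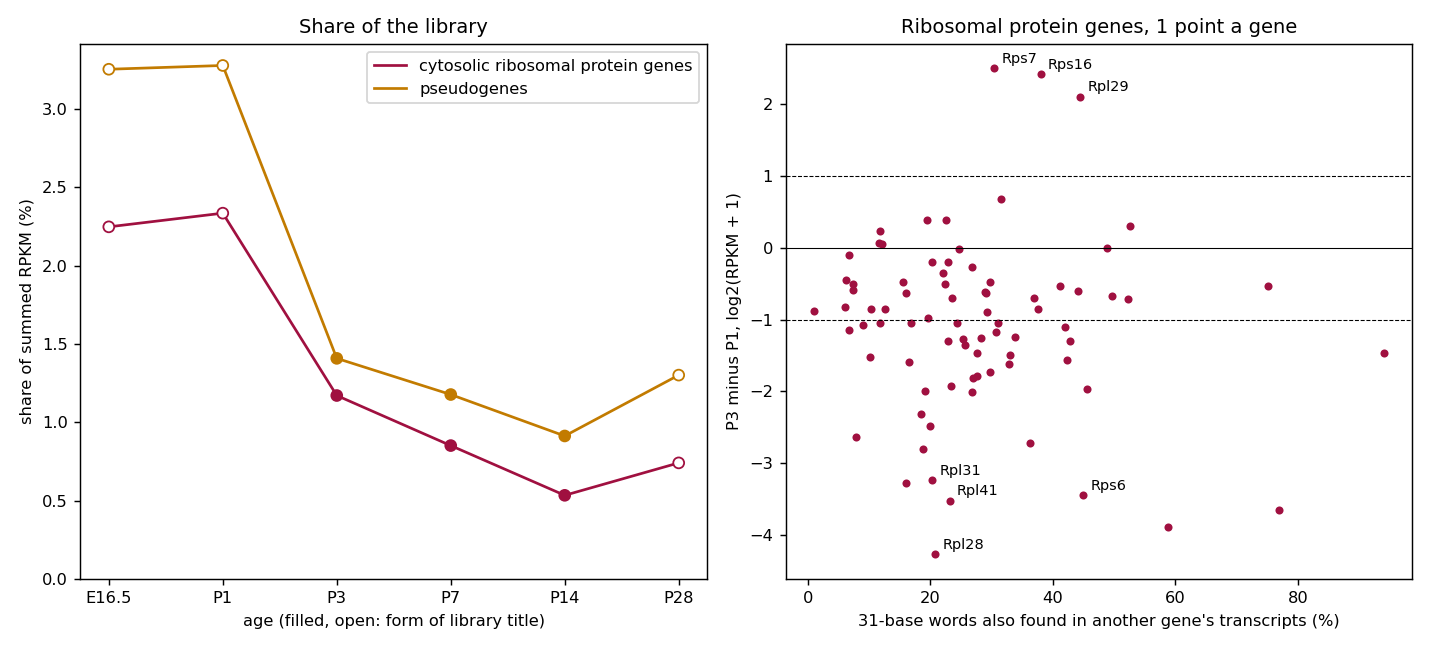
Left, share of all RPKM held by cytosolic ribosomal protein genes and by pseudogenes at each age, in percent, 1 library an age, with the forms of library title as filled and open points. Right, difference P3 minus P1 in log2(RPKM + 1) of each ribosomal protein gene against the percentage of its 31-base words found in another gene. The ribosomal share is 1.17% at P3 and 2.34% at P1. Of the genes with at most 20% shared 12 of 27 were lower, and of those above 20% 28 of 53. A single gene had at most 5% shared, and the part that sharing plays was not tested.

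Pseudogenes in the RefSeq table lay in the same range as the ribosomal protein genes. Of 260 that passed, 119 were lower (45.8%) and 9 higher, with a median of -0.94, and their summed level was 1.41% of all RPKM at P3 and 3.28% at P1. Other protein-coding genes, 11616 in number, had 271 lower (2.33%) and 191 higher (1.64%), with a median of -0.02. Pseudogenes and ribosomal protein genes made up 22.2% and 7.45% of the genes lower at P3. Of the 15 lowest genes outside the ribosomal lists with at least 10 RPKM in the higher library, 7 were pseudogenes, 6 had an identifier not in the RefSeq table, and 2 were protein-coding, Cryaa and Hmga1. Among the identifiers not in the RefSeq table, Gm13654 and LOC639593 kept a fixed ratio to Rps6 in all 6 libraries and are not independent of it. Hmga1, a chromatin protein of dividing cells, was at 3.18 RPKM at P3 and 40.4 RPKM at P1, with 62.1% of its sequence shared. Of the 15 highest, 14 were protein-coding.

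The share of lower genes differed with sharing and with length. Sharing was known for 12610 of the 13899 genes. Of those with none of their 31-base words shared, 2.01% were lower, against 16.2% at 20 to 50% shared and 32.4% above 80%; the share of higher genes was 2.83%, 1.97% and 5.52% in the same classes. Among protein-coding genes outside the ribosomal lists the share of lower genes was 1.98% with none shared, 9.68% at 20 to 50%, 10% at 50 to 80% and 9.26% above 80%, so the higher shares above 50% were not seen there. Among protein-coding genes with at most 5% shared, 9.62% of the 239 genes with transcripts up to 1 kb were lower and 0.345% of the 1737 genes above 6 kb, with medians of -0.12 and 0.08. The part that sequence sharing and length play in the differences was not tested.

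**Figure D5:**
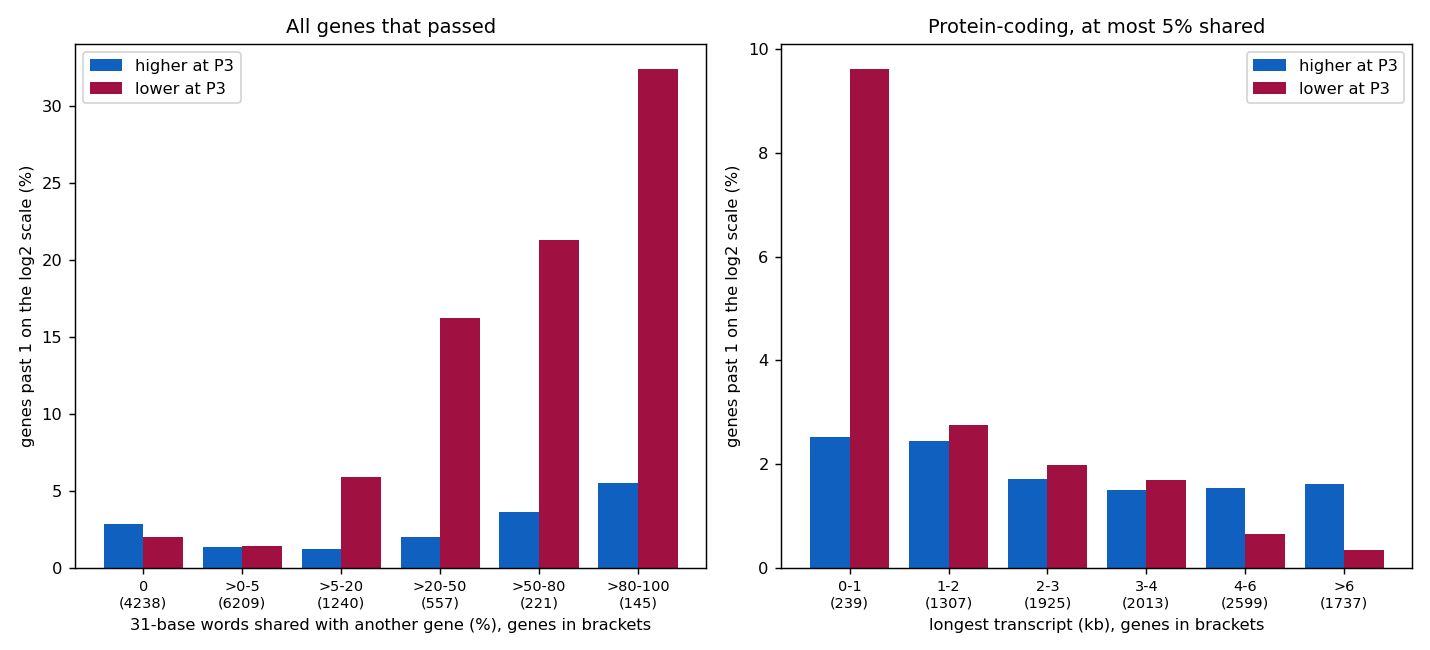
Percentage of genes higher and lower at P3, by the share of 31-base words found in another gene (left, genes that passed and had a value) and by transcript length (right, protein-coding genes with at most 5% shared), with the number of genes in brackets. The share of lower genes is 2.01% with no sharing and 32.4% above 80%, and 9.62% up to 1 kb and 0.345% above 6 kb.

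Other parts of the translation machinery were nearer to the rest. Of 75 mitochondrial ribosomal protein genes, 3 were lower, near the 3.86% of all genes, 0 were higher and the median was -0.20. Of 36 translation factors 5 were lower, 0 higher and the median was -0.36, and with at most 5% shared the number lower was 0 and the median -0.08. Eef1a1, the abundant elongation factor, was at 182 RPKM at P3 and 715 RPKM at P1, with 49.8% shared. Of 20 ribosome biogenesis genes 1 was lower, Gar1, a component of the particles that modify ribosomal RNA, at 8.30 RPKM at P3 and 29.2 RPKM at P1 with 0.404% shared; the median of that list was -0.56. Of the 3 mitochondrially encoded genes that passed, 1 was lower, COX1, at 1223 RPKM at P3 and 4353 RPKM at P1, with 63.9% of its sequence shared. Of 16 heat shock genes, 3 were lower, all with over 20% shared.

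The levels at the other ages can be set beside the form of the title. Over the 13899 genes, values at P3, P7 and P14 all lay below those at E16.5, P1 and P28 for 533 genes (3.83%) and all above for 1027 genes (7.39%). Of the 537 genes lower at P3, 150 (27.9%) lay below in this way, and of the 297 higher, 76 (25.6%) lay above. P3 and P1 enter both counts, so these shares do not test the title form. By class, 21 of 80 ribosomal protein genes (26.2%), 81 of 260 pseudogenes (31.2%) and 312 of the other protein-coding genes (2.69%) lay below. None of the cell cycle, replication or progenitor genes that passed lay wholly on either side: 0 of 40, 0 of 37 and 0 of 33. A gene whose level falls, or rises, at every age cannot lie on either side. The summed levels of those lists were lower at P28 than at P3, at 68.0 and 902 RPKM for the cell cycle list. Their counts of 0 therefore do not test the title form. Of the rod genes, whose summed level rose at every age, 1 of 30 lay above and 0 below, the 1 being Nr2e3. In other lists more genes did: all 3 of the mitochondrially encoded genes that passed lay below, of 75 respiratory chain genes 11 lay below and 7 above, and 6 of 32 cilium genes and 4 of 11 microglia and macrophage genes lay above.

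Most lens genes followed the title form. Of the 25 measured, 16 were lower at P3, P7 and P14 than at E16.5, P1 and P28 and 0 higher, beside 2.76% lower and 5.82% higher of all 30042 genes. The 30042 include genes listed at 0 in all libraries, which cannot lie on either side. Some of the 16 rest on few reads, such as Crygc with about 1 read at P3 and 2 at P1. The other lens genes overlapped, such as Cryab, a small heat shock protein also made outside the lens, with 0.275 RPKM at P3 and 0.625 RPKM at P1 and 5.26 RPKM at P7. Of the 6 that passed, 5 were lower and 0 higher, but all 5 passed through the P1 library alone, so the filter set that direction; the median was -1.43 over the 6 and -0.35 over all 25. Cryaa, the alpha crystallin of the lens, was listed at 0 at P3, against 13.01 RPKM at P1, and was at 23.7 RPKM at E16.5, 0.0360 at P7, 0.351 at P14 and 20.7 at P28. The 25 lens genes summed to 2.83 RPKM at P3 and 29.9 RPKM at P1. Of 7 genes of pigment epithelium and melanocytes that passed, 3 were higher and 0 lower, and these 3 passed through the P3 library alone: Pmel, a melanosome protein, was at 2.50 RPKM at P3 and 0.359 RPKM at P1. Their list summed to 31.03 RPKM at P3 and 34.5 RPKM at P1, most of it from Trpm3, which is not limited to that tissue. Of 11 microglia and macrophage genes 0 were higher and 0 lower, of 4 astrocyte genes 0 were higher and 0 lower, and of 14 muscle genes 0 passed. The part of lens or pigmented tissue in the other results was not tested.

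At the threshold, Thbs1 (difference 1.00, 1.70 RPKM at P3 and 0.349 RPKM at P1) was just inside on the higher side and Pappa2 (0.99) just outside. On the lower side Cks1b, at 8.38 RPKM at P3 and 17.8 RPKM at P1, was just inside, and Banf1, at 56.9 RPKM at P3 and 115 RPKM at P1, just outside.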

How the data were processed

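The authors deposited 1 table of RPKM values for 30042 genes in 6 libraries of wild-type mouse retina, per the file headers; 0 sample columns were left unused. Per the labels' protocols, RNA came from fresh retinas by Trizol, messenger RNA was purified on beads, and fragmented double-stranded cDNA went into Illumina libraries with a kit made for ChIP DNA. The genome build was mm9 and bcl2fastq 2.17.1.14 was among the tools, per the submitters' processing notes; for the aligner, counter, annotation and reads that fit several places, nothing is given in the sources used here.

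Differences were log2(RPKM + 1) at P3 minus P1 over genes with the higher value at least 1 RPKM, counted at 1 or more in either direction. With 1 library per age no test was made. Depth was estimated from the steps between low values and GENCODE M21 transcript lengths, and 95% intervals of ratios from the estimated reads by the exact binomial method, covering counting error only. Biotypes and promoters came from RefSeq (24398 identifiers matched) and lengths and 31-base words from GENCODE (24965 matched). Scripts used Python 3.11.15, pandas 2.3.3, numpy 2.4.6, scipy 1.17.1 and matplotlib 3.10.9, and were tested on simulated data.

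The 45 gene lists and the genes of the step were chosen with earlier results of these data known, so counts in a list are descriptions. Named genes were taken from the following groups, and not all members of a group are named. From the whole table these were the 15 highest and 15 lowest genes outside the ribosomal lists with at least 10 RPKM. From each list they were up to 4 members with the largest differences plus its most abundant one. The others were the 4 highest and 4 lowest ribosomal protein genes, genes at the thresholds, and Dio2, Dio3, Thrb, Mki67, Ccnd1, Crx and Opn1sw. Added to these were the 15 highest and 15 lowest protein-coding genes outside the ribosomal lists with at least 10 RPKM. The 15 lowest of them with at most 5% shared were added too. Further members of the lists were named after their values were seen. The mitochondrially encoded list and the restriction to genes with at most 5% of 31-base words shared were also chosen after seeing the data. Alternatives were a pseudocount of 0.1, 2 rescalings, a filter at 5 RPKM or none, and a threshold of 0.5. A few genes of these lists are counted but not reported here by name.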

Additional observations from a re-analysis of the deposited data

How the results depend on the processing

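No paired analysis was possible because each age has 1 library, and for the same reason no replicate could be left out. Of 180 values recomputed under an alternative, 162 kept their direction and stayed within 1.5 times the value as deposited or, for a median, within 0.1 of it, 18 moved further and 0 reversed. The number of genes higher at P3, 297 as deposited, was 189 at a filter of 5 RPKM, 718 with a pseudocount of 0.1 and 1732 at a threshold of 0.5. The number lower, 537 as deposited, was 850 with a pseudocount of 0.1, 2133 at a threshold of 0.5 and 171 among genes with at most 5% of their 31-base words shared. In the last setting 0 ribosomal protein genes were lower, since a single one of them was left. Without a filter on low values the counts were the same, since a gene under 1 RPKM in both libraries cannot differ by 1. Median-of-ratios rescaling gave 307 higher and 512 lower. Among the lists, the medians of the precursor, rod, cone, amacrine, glycolysis, hypoxia and synapse genes stayed above 0 and those of the cell cycle, replication, progenitor, ganglion cell, ribosomal protein, translation factor and lens genes below 0 under every alternative run. The cone median was 0.42 at a filter of 5 RPKM and 0.33 with a pseudocount of 0.1, against 0.22 as deposited. The amacrine median was 0.29 after rescaling to a common total, against 0.17. The lens median was -0.35 with no filter and -3.60 with a pseudocount of 0.1, against -1.43. The glycolysis genes higher numbered 2 with at most 5% shared, and the synapse genes higher numbered 4 after rescaling to a common total and 5 with a pseudocount of 0.1. With at most 5% shared, 2 replication genes and 0 translation factors were lower. For the lens list no value was taken at a filter of 5 RPKM, which left under 3 members. Depth limits genes under about 1 RPKM, and no alternative addresses the single library per age.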
